A study of Mus musculus with 14 samples.

Results

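H3K27me3, the trimethylation of lysine 27 on histone H3, was examined at 6 genes of the POU transcription factor family in mouse primary hippocampal neurons. The genes were Pou3f1, Pou3f2 and Pou3f3 of class 3 and Pou4f1, Pou4f2 and Pou4f3 of class 4. A member was any deposited peak that shared at least 1 base with the body of such a gene or with the 5 kb on either side of it, in the GENCODE annotation of mm10. This rule took 30 of the 23668 listed peaks, 5 at class 3 and 25 at class 4 genes. The wild-type neurons came from CD1 mouse embryos of mixed sex at embryonic day 17. On day 7 in culture they received lipid nanoparticles with either a negative control (NC) gapmer or a gapmer against the long noncoding RNA NeuID, and experiments were done between days 10 and 21. A gapmer is a short antisense oligomer that directs cleavage of the RNA it pairs with. By their labels, 6 ChIP libraries were controls and 6 were NeuID knockdown (KD), with 1 input for each condition, and nothing says whether the libraries came from separate cultures.

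POU proteins bind DNA through a POU-specific domain and a homeodomain. The class 3 genes are active in the developing forebrain, where Pou3f2 and Pou3f3 act in cortical and hippocampal neurons, and Pou3f1 is also known from Schwann cells that form myelin. The class 4 genes are known from sensory cells, among other sites. Pou4f1 acts in sensory ganglia, Pou4f2 in retinal ganglion cells and Pou4f3 in the hair cells of the inner ear. Polycomb repressive complex 2 places H3K27me3, mostly on silent developmental genes and often over CpG-rich sequence.

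Each peak has 1 mean per group in the authors' deposited table, as the log2 of normalized reads per peak. No value per library was analysed here, so the means carry no SD, no n and no test, and whether a difference exceeds the spread between libraries is unknown. A peak was called lower or higher when its knockdown mean lay at least 2-fold below or above its control mean. In such bulk chromatin, a mark lost from some cells and a weaker mark in all cells cannot be told apart. A listed peak covered the gene start of 2 of 11 neuron genes, Neurod2 and Gad2 (named after their values were seen), of 0 of 8 glial genes and of 5.19% of all protein-coding genes. The neuron genes had 51 peaks in their windows, 7 lower and 7 higher (13.7% each), and the glial genes 5, with 0 lower and 1 higher, where 20.6% of all listed peaks were lower and 20.4% higher. The mark does not measure expression, so the cell type label was not tested by these counts.

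Listed H3K27me3 peaks were extensive at the class 4 genes and sparse at the class 3 genes. Sequence outside listed peaks had no value, so a missing peak does not show that the mark was absent. Peaks covered 77.7% of the Pou4f1 window, 62.8% of the Pou4f2 window and 58.5% of the Pou4f3 window. They covered 16.8% of the Pou3f1 window, 6.197% of the Pou3f2 window and 0% of the Pou3f3 window. The windows held 10, 8 and 7 peaks at Pou4f1, Pou4f2 and Pou4f3, against 3 at Pou3f1, 2 at Pou3f2 and 0 at Pou3f3. Each class 4 gene therefore held more peaks than any class 3 gene.

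Among 21938 protein-coding genes, 28.1% had a peak in the same window and 1.80% had at least 7. Only 0.574% of these genes held more peaks than Pou4f1, 0.998% more than Pou4f2 and 1.34% more than Pou4f3. Pou3f1 was exceeded by 4.71% of the genes and Pou3f2 by 7.37%.

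**Figure D1:**
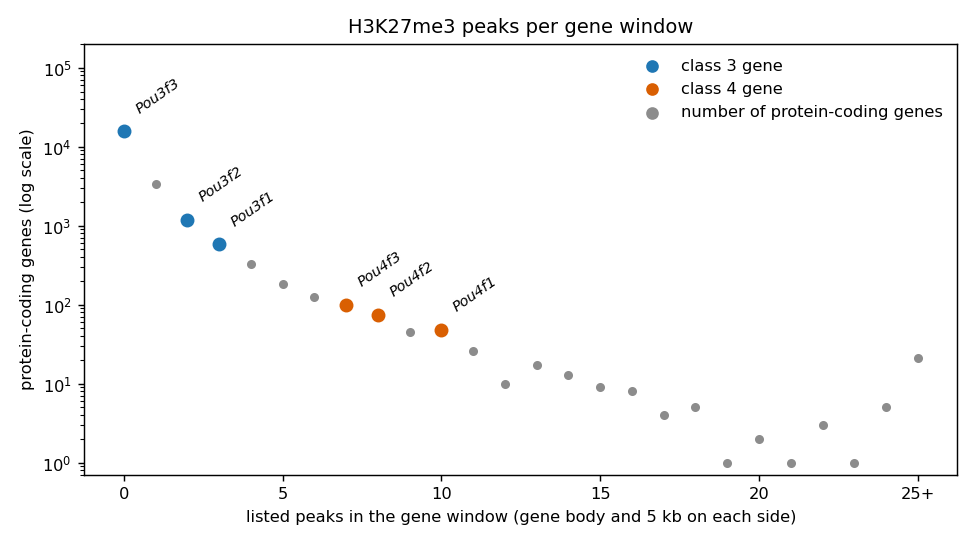
Number of protein-coding genes (vertical log axis) by the number of listed H3K27me3 peaks in the gene window (horizontal axis, 25 or more pooled), with class 3 genes in blue and class 4 genes in orange. The class 4 genes lie at 7, 8 and 10 peaks, where few genes are found, and the class 3 genes lie at 0, 2 and 3.

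The control reads of the listed peaks, summed and divided by the window length, gave the same order. Sequence outside listed peaks added no reads, so this order is not independent of the peak coverage. It was 24.3 normalized reads per kb at Pou4f1, 23.6 at Pou4f2, 15.5 at Pou4f3, 3.50 at Pou3f1 and 1.66 at Pou3f2, while Pou3f3 had no listed signal. Peaks that reach past the window edge were counted whole, which raises the class 4 values. At Pou4f1 the peaks spanned 14236 bp, with 12690 bp inside the window, and at Pou4f2 9365 and 8565 bp. After knockdown the signal was 20.7 at Pou4f1, 14.5 at Pou4f2, 16.0 at Pou4f3, 4.02 at Pou3f1 and 0.974 at Pou3f2. Pou4f1 remained the highest, and Pou4f2 and Pou4f3 exchanged places. Without values per library it cannot be said which neighbours in this order differ beyond their spread.

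The gene starts separated the classes as well. A listed peak covered the start of 3 of 3 class 4 genes and of 0 of 3 class 3 genes, while 5.19% of all protein-coding genes had a covered start. The peak over the Pou4f1 start (chr14:104466546-104468023) had a control mean of 4.83 and a knockdown mean of 5.23 on the log2 scale. At Pou4f2 (chr8:78436099-78439797) the corresponding means were 7.03 and 6.37. This 3699 bp peak was the widest of the 30 and held the most reads, while per kb its control level of 5.14 (log2) lay below that of other member peaks, which reached 5.64. For Pou3f1 the nearest peak lay 1061 bp from the start, inside the gene, and for Pou3f2 it lay 1238 bp upstream. The nearest peak to Pou3f3 lay 10.8 kb from its start, outside the window.

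The promoter sequences are shown because the classes differed in peak coverage there although each held more CpG than the median promoter. Promoters, from 250 bases before to 50 after the start, were available for 4 of the 6 genes in RefSeq (GRCm38.p6). They are given 5′ to 3′ on the gene's strand, with each CpG in capitals. The Pou4f1 promoter (chr14:104467950-104468249, minus strand) and the Pou4f2 promoter (chr8:78436598-78436897, minus strand) met a peak. The Pou3f2 promoter (chr4:22488317-22488616, minus strand) and the Pou3f3 promoter (chr1:42695518-42695817, plus strand) did not.
Pou4f1: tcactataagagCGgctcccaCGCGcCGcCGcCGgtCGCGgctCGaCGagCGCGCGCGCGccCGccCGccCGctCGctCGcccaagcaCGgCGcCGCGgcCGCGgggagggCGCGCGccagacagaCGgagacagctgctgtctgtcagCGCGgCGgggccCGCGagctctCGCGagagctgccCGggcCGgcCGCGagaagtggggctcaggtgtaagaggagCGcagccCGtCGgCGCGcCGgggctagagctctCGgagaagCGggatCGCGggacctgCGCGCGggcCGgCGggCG
Pou4f2: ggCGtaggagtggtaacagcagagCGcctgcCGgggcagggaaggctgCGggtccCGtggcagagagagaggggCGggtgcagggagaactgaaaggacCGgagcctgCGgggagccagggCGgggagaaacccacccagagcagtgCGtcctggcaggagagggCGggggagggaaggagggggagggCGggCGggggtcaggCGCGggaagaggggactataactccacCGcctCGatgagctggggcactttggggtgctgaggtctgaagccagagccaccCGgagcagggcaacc
Pou3f2: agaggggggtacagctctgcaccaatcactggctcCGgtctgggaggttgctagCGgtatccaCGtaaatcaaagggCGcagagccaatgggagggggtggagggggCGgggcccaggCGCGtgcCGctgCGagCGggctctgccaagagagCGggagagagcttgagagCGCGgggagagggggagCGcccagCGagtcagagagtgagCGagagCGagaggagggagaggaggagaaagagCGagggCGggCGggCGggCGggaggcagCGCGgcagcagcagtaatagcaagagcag
Pou3f3: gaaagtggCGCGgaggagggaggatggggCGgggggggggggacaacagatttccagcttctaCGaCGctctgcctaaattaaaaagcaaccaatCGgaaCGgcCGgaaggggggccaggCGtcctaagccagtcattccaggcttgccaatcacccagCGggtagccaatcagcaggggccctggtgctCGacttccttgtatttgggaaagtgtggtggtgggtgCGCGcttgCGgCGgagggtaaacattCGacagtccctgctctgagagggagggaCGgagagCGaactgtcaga

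The Pou4f1 promoter held 57 CpG in 300 bases, more than all but 0.110% of 32851 promoters, and its peak reached 74 of those bases. The Pou4f2 promoter held 18 CpG, and all 300 bases lay under the peak. Pou3f3 also had 18 CpG and Pou3f2 had 24, with 0 bases under a peak. The median promoter held 7 CpG. Of promoters with 10 to 19 CpG 10.2% met a listed peak, of those with 20 to 29 CpG 8.82%, and of those with 30 or more 6.07%. Of those with 5 to 9 CpG 4.59% did, and of those with fewer than 5 CpG 1.47%. The CpG count thus did not order these 4 promoters by peak coverage. The octamer motif of POU proteins, ATGCAAAT on either strand, was in 0 of the 4 promoters and in 1.74% of all promoters. It was in 0 of the 30 member peaks and in 2.60% of all listed peaks on chromosomes.

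The level within the peaks was compared per kb of peak. The median control level was 4.55 log2 normalized reads per kb of peak at class 3 (from 4.08 to 4.90) and 4.71 at class 4 (from 3.08 to 5.64), a difference of 0.16. It was 4.23 over all listed peaks. That difference was -0.010 without Pou3f1, 0.60 with the gene body alone and 0.57 for peaks whose overall mean reached 4. The median width was 508 bp at class 3, 1128 bp at class 4 and 426 bp over all listed peaks. Peaks of at least 1 kb made up 1 of 5 at class 3 and 14 of 25 at class 4, against 9.72% of all peaks. An overall mean of at least 4 on the log2 scale was reached by 19 of the 30 member peaks and by 14.1% of all peaks. Peaks listed at 0 in a group made up 6.64% of all peaks and 0 of the 30 member peaks.

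After NeuID knockdown, 5 of the 30 member peaks were lower and 2 were higher by at least 2-fold. Among all listed peaks 20.6% were lower and 20.4% were higher by the same limit, so the members' share of lower peaks, 16.7%, was near the background and that of higher peaks, 6.67%, was below it. Strong peaks passed the limit less often in the whole table. Among peaks whose overall mean reached 4 on the log2 scale, 3 of 19 member peaks were lower and 1 was higher, against 9.12% lower and 5.02% higher among all 3344 such peaks. All 7 peaks past the limit lay at class 4 genes, which held 25 of the 30 peaks. The median difference, knockdown minus control on the log2 scale, was -0.45 over the members and -0.019 over all peaks. It was -0.66 over the 5 class 3 peaks and -0.43 over the 25 class 4 peaks. The class 3 median turned to 0.037 with the gene body alone, with peaks of at least 500 bp or without Pou3f2, and to 0.32 for strong peaks. These medians depended on which peaks entered: for members whose overall mean reached 4 the median was 0.037, and without Pou4f2 it was -0.097.

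**Figure D2:**
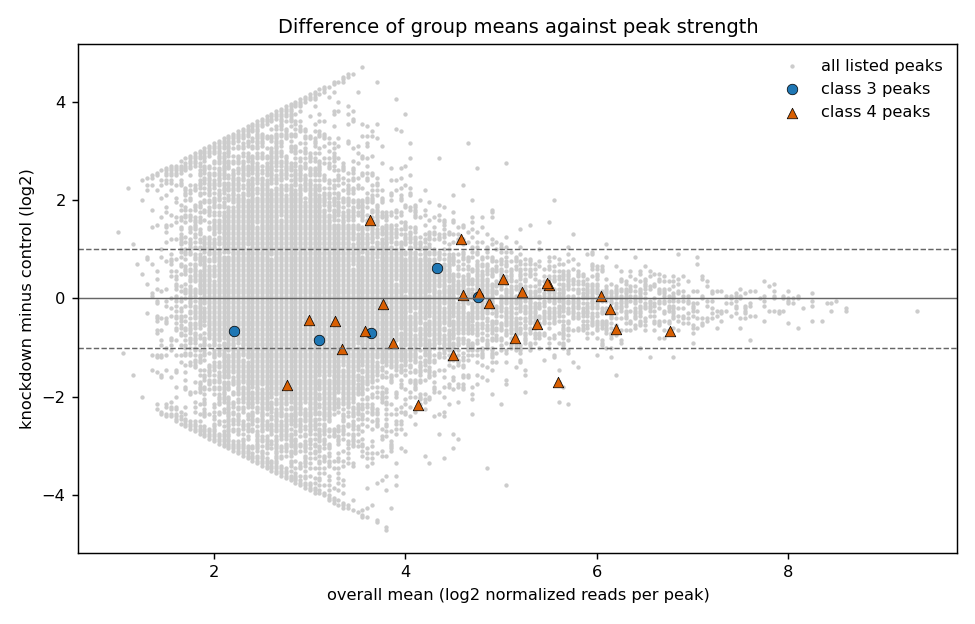
Knockdown minus control mean (vertical axis, log2) against the overall mean (horizontal axis, log2 normalized reads per peak) for all listed peaks (grey, rounded to a grid so that 1 point can stand for several peaks), class 3 peaks (blue circles) and class 4 peaks (orange triangles). Dashed lines mark 2-fold, which 5 member peaks pass downward and 2 upward, and the grey cloud narrows towards strong peaks.

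Pou4f2 (ENSMUSG00000031688, chr8:78433010-78436645, minus strand) had a knockdown mean below the control mean in most of its peaks. This held for 7 of its 8 peaks, with differences from -2.16 to 0.078, and for 50.8% of all listed peaks. Summed over the gene, 322 normalized reads in the control stood against 198 in the knockdown, or 61.4%, over the same 9365 bp. The peaks are parts of 1 locus and not replicates. Peaks are numbered here along the direction of transcription.

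The wide peaks over the start of Pou4f2 and its coding sequence held most of its reads. Per kb of peak the control level was 5.14 (log2) in peak 3, 5.64 in peak 4 and 5.40 in the narrower peak 6. Peak 3, over the start, had 131 control and 82.5 knockdown reads. Peak 4, over a coding exon, had 87.5 and 56.8. Both fell short of 2-fold, with differences of -0.67 and -0.62. The 3 peaks past 2-fold lay outside the gene body. Peak 6 (chr8:78432303-78432944), just downstream of the gene, had 27.1 reads in the control and 6.07 in the knockdown, a difference of -2.16. Peak 2 (chr8:78440399-78440873), upstream, had 9.97 and 2.94 reads, a difference of -1.76. Peak 8 (chr8:78429001-78429678) was at 13.2 and 6.44 reads, a difference of -1.03. The outermost upstream peak, peak 1, was the exception, with means of 4.56 and 4.64 and a difference of 0.078.

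Pou4f1 (ENSMUSG00000048349, chr14:104461676-104467999, minus strand) showed a mixed picture. Its 10 peaks summed to 397 control and 338 knockdown reads, or 85.2%, over 14236 bp. The 4 peaks that touched the gene body, counted whole, together stood at 111% of the control, and the 6 other peaks at 62.8%. Peak 8 (chr14:104458453-104460149), downstream, went from 70.6 to 21.7 reads, a difference of -1.71. The noncoding gene D130079A08Rik starts inside this peak and runs on under peaks 9 and 10, so these values cannot be assigned to either gene alone. Peak 2 (chr14:104471788-104472721), upstream, went from 30.1 to 13.52 reads, a difference of -1.16. In the opposite direction, peak 6 (chr14:104462930-104464467), over the noncoding part of an exon, went from 15.0 to 34.6 reads, a difference of 1.21. Peak 5 began at the base next to peak 6 and had means of 6.02 and 6.07, a difference of 0.05. Of the 3 strongest peaks, 5 and 7 were thus close between the groups and 8 was lower by more than 2-fold.

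**Figure D3:**
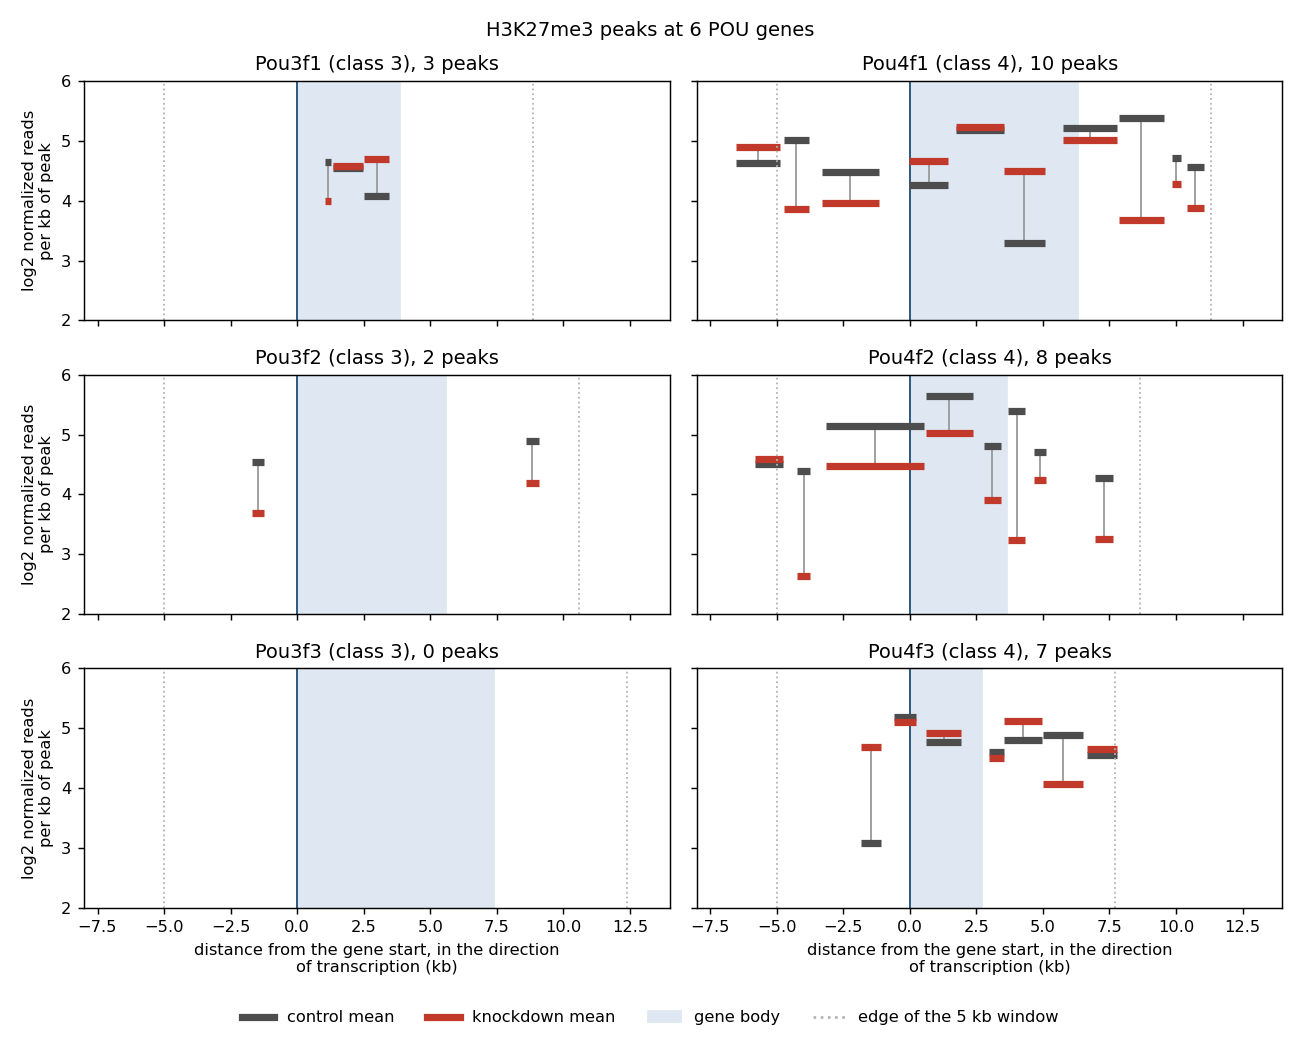
Peaks at the 6 genes as bars from their first to last base (horizontal axis, kb from the gene start in the direction of transcription) at the height of their control (grey) and knockdown (red) level (vertical axis, log2 normalized reads per kb of peak), with the gene body shaded and window edges dotted. Red lies below grey in 7 of 8 Pou4f2 peaks, lies on both sides of it at Pou4f1 and Pou4f3, and the Pou3f3 panel holds 0 peaks.

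The middle 300 bases of the lowest peak of each of these genes are shown to set the sequence under the largest decreases beside that of the promoters. Capitals mark CpG, and both are on the plus strand of GRCm38.p6. The first is chr8:78432474-78432773 in Pou4f2 peak 6, and the second is chr14:104459152-104459451 in Pou4f1 peak 8.
Pou4f2 peak 6: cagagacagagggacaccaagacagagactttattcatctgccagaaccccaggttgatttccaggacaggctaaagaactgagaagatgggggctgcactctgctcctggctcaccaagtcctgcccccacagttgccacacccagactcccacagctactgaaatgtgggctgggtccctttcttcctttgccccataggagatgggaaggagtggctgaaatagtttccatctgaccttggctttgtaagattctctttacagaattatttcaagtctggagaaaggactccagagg
Pou4f1 peak 8: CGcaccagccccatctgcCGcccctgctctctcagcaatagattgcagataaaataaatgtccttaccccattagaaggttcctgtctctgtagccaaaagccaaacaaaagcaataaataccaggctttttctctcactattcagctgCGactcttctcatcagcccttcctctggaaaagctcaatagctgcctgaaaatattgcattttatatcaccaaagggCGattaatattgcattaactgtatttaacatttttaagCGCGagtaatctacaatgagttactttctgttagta

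The first stretch held 0 CpG and the second 6, against 18 and 57 in the promoters of these genes. Per 100 bases the 5 flanking peaks of Pou4f2 had 0.623 to 1.45 CpG. Its 3 peaks that touched the gene body, taken whole, had 1.21 to 5.25. The median over all listed peaks on chromosomes was 1.23. Over the class 4 genes together the median was 4.63 CpG per 100 bases for peaks that touched gene bodies and 1.58 for flanking peaks. The part of CpG content in the differences was not tested. At class 3 genes the 5 peaks had 3.54 to 14.5 CpG per 100 bases and a median of 6.77, higher than the median of 1.91 at class 4.

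Pou4f3 (ENSMUSG00000024497, chr18:42394539-42397249, plus strand) had nearly equal sums in both groups. Its 7 peaks came to 196 reads in the control and 203 in the knockdown, or 103%, over 7511 bp. The peak over the start (chr18:42393956-42394778) had means of 4.91 and 4.82, and the peak over the coding exon (chr18:42395165-42396463) had 5.15 and 5.29. One peak passed 2-fold. It lay upstream (chr18:42392703-42393463) and went from 6.46 to 19.5 reads, a difference of 1.60. Downstream, peak 6 (chr18:42399562-42401052) had 43.9 and 25.02 reads, a difference of -0.81, and the other downstream differences were between -0.11 and 0.32. All 6 pairs of adjacent Pou4f3 peaks had differences of opposite sign, against 1 of 7 pairs at Pou4f2 and 3 of 9 at Pou4f1. Several Pou4f3 differences were small, such as -0.085 and 0.10, and without a spread their signs are uncertain. The share of such pairs over all listed peaks was not computed, so nothing particular to Pou4f3 is read from this count.

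**Figure D4:**
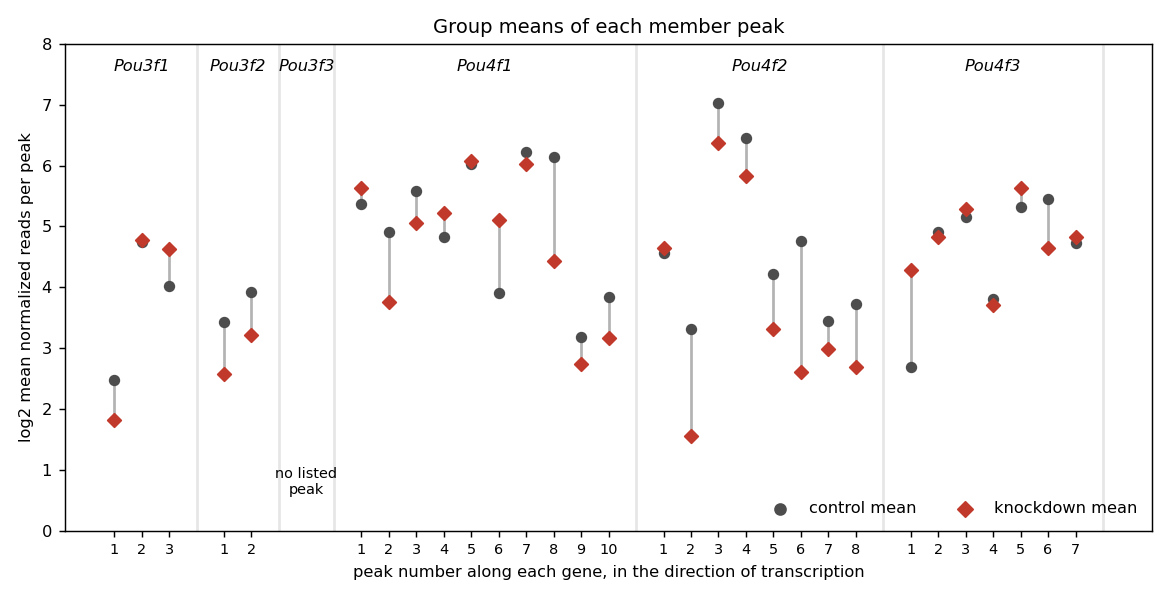
Control (grey circles) and knockdown (red diamonds) means of each member peak (vertical axis, log2 normalized reads per peak), with peaks numbered along each gene (horizontal axis). The longest lines are at Pou4f2 peaks 6 and 2, Pou4f1 peak 8 and Pou4f3 peak 1, and only the last of these points upward.

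Across the class 4 genes the position of the calls can be set side by side. Of the 9 peaks that touched a gene body 0 were lower and 1 was higher, and of the 16 others 5 were lower and 1 was higher. Among all listed peaks 20.6% were lower and 20.4% higher. The share over all gene bodies and all flanks was not computed, so nothing particular to position is read from these few peaks. A peak that touched a gene body was counted there with its full width and reads, including any part in the flank. Pou4f2 peak 3, for example, ran from -3152 to 546 bp relative to the start. Counted so, the class 4 sum was 86.6% of the control for peaks touching the bodies (15056 bp, 32.3 and 27.95 reads per kb). For the other peaks it was 74.2% (16056 bp, 26.7 and 19.8 reads per kb), so these sums do not separate body from flank sequence. In total the class 4 peaks held 915 control and 739 knockdown reads over 31112 bp, or 80.8%, and 91.2% without Pou4f2. All listed peaks together came to 97.1%. The authors' normalization was not stated, and it may fix the last ratio.

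The class 3 genes gave smaller sums and no peak past 2-fold. At Pou3f1 (ENSMUSG00000090125, chr4:124656807-124660655, plus strand) all 3 peaks lay inside the gene. Peak 2 (chr4:124658151-124659295), over coding sequence, was at 26.7 control and 27.4 knockdown reads. Peak 3 (chr4:124659310-124660269), over the noncoding end of the exon, was at 16.3 and 24.8 reads, a difference of 0.61. Peak 1 (chr4:124657868-124658088), 221 bp wide, was at 5.54 and 3.51 reads, a difference of -0.66. The Pou3f1 peaks summed to 115% of the control.

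Pou3f2 (ENSMUSG00000095139, chr4:22482780-22488366, minus strand) had a peak upstream (chr4:22489604-22490061) with 10.7 control and 5.93 knockdown reads, a difference of -0.85. Its other peak lay downstream (chr4:22479275-22479782), with 15.1 and 9.25 reads and a difference of -0.71. Together they came to 58.7% of the control over 966 bp, the lowest share of the 5 genes with peaks, from the fewest reads. Pou3f3 (ENSMUSG00000045515, chr1:42695768-42703176, plus strand) had none, and neither had the parts of the noncoding genes Pantr1, AC122898.1 and Pantr2 in its window. The class 3 total was 95.4% of the control over 3292 bp, and 115% without Pou3f2.

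The other 9 POU genes were examined with the same window. Peaks were listed for 3 of them, 8 in all, and 0 of 9 gene starts were covered. Pou3f4, the remaining class 3 gene, had no peak within 50 kb, and neither had Pou5f1, which maintains pluripotency. Of the 8 peaks 0 were lower and 3 were higher (37.5%), against 20.6% lower and 20.4% higher among all listed peaks. At Pou2f2, known from B cells, a peak 1193 bp from the start (chr7:25180919-25181352) went from 1.37 to 3.62 on the log2 scale. At Pou2f3, which specifies tuft cells, 2 of 5 peaks were higher, with differences of 1.14 and 1.33, and the widest (chr9:43205462-43206766) was at 4.98 and 4.67. A listed peak over the gene start was thus found in class 4 and in none of the other 12 POU genes examined.

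Genes that work with the POU factors were counted from lists written with earlier results of these data known. Of 14 partners and targets of class 3 factors, 10 had peaks and 4 had a covered start. Their 33 peaks included 6 lower (18.2%) and 4 higher (12.1%), with a median difference of -0.018. The lower ones included 2 at Egr2, a regulator of myelination, and 3 at Otx1. The higher ones included 1 each at Sox11, Sox10 and Otx1. Of 22 regulators, partners and targets of class 4 factors found in the annotation, 21 had peaks and 13 had a covered start. Their 311 peaks, of which Ebf1, Ebf3 and Ebf2 held 75, 70 and 51, included 53 lower (17.04%) and 51 higher (16.4%), with a median of -0.044. The shares of both lists lay below the 20.6% and 20.4% of all peaks. They were not matched for peak strength, so nothing particular to these genes is read from them.

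Several class 4 regulators and partners had peaks in both directions. Neurog1, a proneural gene of sensory neurons, had 3 lower and 2 higher of 6 peaks. Isl1, which acts with Pou4f1 and Pou4f2, had 3 lower and 1 higher of 11. Further lower peaks included those at Runx1, Runx3, Eomes, Barhl2 and Prdm12, and at the 3 Ebf genes. Further higher peaks included those at Neurog2, Isl2, Gfi1, Runx1, Runx3, Eomes, Barhl1 and Barhl2, and at the 3 Ebf genes. Atoh1, a regulator of hair cells, had 5 peaks with differences from -0.64 to 0.65, and Atoh7, which acts before Pou4f2 in the retina, had 0 peaks.

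Genes most like each member were found by the distance between the log2 control and knockdown reads per kb of window, which are only 2 values per gene. Peaks at the window edge were again counted whole. For Pou4f1 the most alike genes were Skor1 and Foxe1, at distances of 0.013 and 0.026. For Pou4f2 they were Otx2 and Sox17, at 0.21 and 0.22. Otx2 had 21.1 control and 15.9 knockdown reads per kb of window, where Pou4f2 had 23.6 and 14.5. For Pou4f3 they were Gfy and Fev, at 0.012 and 0.056. For Pou3f1 they were Npw and Sp7, at 0.054 and 0.058, and for Pou3f2 Ren1 and Tpm1, at 0.019 and 0.049. A listed peak also covered the gene start of Foxe1, Otx2, Sox17, Fev and Npw. It did not cover that of Skor1, Gfy, Sp7, Ren1 or Tpm1, so a covered start was not particular to class 4 genes.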

How the data were processed

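H3K27me3 ChIP-seq of primary hippocampal neurons was analysed from the authors' table of peaks. Single-end reads of 50 bases were aligned by the authors with bowtie2 against mm10. MACS2 in broad mode (q value limit 0.1) gave the peaks, and DiffBind the group values. The values used are the authors' deposited log2 mean normalized reads per peak, over all libraries and per group, with 0 (1 read) as the lowest listed value. How reads were normalized, peaks merged, duplicates removed and input subtracted was not stated. The table also holds the fold change, p-value and FDR of the authors' comparison, which were not used. The overall mean weights the groups as 6 control and 5 knockdown libraries, although the labels list 6 of each. Depth per library was not analysed here.

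Peaks, groups (by title) and genes (GENCODE M21, GRCm38, which is mm10) were joined by overlap of at least 1 base. The difference is the knockdown minus the control log2 mean. Levels between peaks were compared per kb. No test was possible on group means. The members and lists were chosen with earlier results of these data known. Named were the 6 genes with all their peaks, peaks past 2-fold in the lists, and for each gene the 2 most alike by distance. Of the list symbols, Drgx was not matched to the annotation, and some listed genes are counted but not reported here by name. Alternatives covered the window, filters on strength, width and 0, the limit, centring, a pseudocount of 4 reads, and leaving out each gene. Scripts were tested on simulated data. Python 3.11.15, numpy 2.4.6, pandas 2.3.3, pysam 0.24.0 and matplotlib 3.10.9 were used.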

Additional observations from a re-analysis of the deposited data

How the results depend on the processing

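No paired analysis was possible because each peak had only 1 mean per group. Leaving out single libraries and fitting a replicate block could not be run either. The limits below follow from few peaks (5 at class 3) and from means without a spread. Of 136 recomputed values, 91 stayed within 1.5 times (counts, levels per kb and the class difference in level), 0.1 (log2 medians of knockdown minus control) or 10 percentage points (sums), and 11 reversed direction. The 91 overstate stability, because some values could not change. Pou3f3 had no peak to leave out, the filter on 0 removed no member peak, and leaving out a gene of either class does not touch the other class. The class difference, 1.12-fold, was itself smaller than the 1.5-fold allowed. The cause was not tested unless the alternative changes the set of peaks by construction. The narrower windows and the filters on strength and width remove peaks, and the 10 kb window adds them.

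With the gene body alone, which keeps whole every peak that touches it, 0 peaks were lower and 1 was higher. The median difference was then -0.024 over all members, 0.037 at class 3 and -0.085 at class 4, while the class 3 sum was 115% of the control. With 2 kb on each side 2 peaks were lower, the medians were -0.16, -0.31 and -0.16, and the class 3 sum was 104%. With 10 kb 8 were lower and 4 higher, with medians of -0.31, -0.31 and -0.31. An overall mean of at least 4 gave 3 lower and 1 higher, medians of 0.037, 0.32 and -0.085, and a class 3 sum of 122%. Peaks of at least 500 bp gave medians of -0.11, 0.037 and -0.16 and a class 3 sum of 106%. With log2(reads + 4) 3 were lower and the medians were -0.30, -0.34 and -0.28. A 1.5-fold limit gave 13 lower. With 1 value per gene the medians were -0.32, -0.37 and -0.32.

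Without Pou3f1 the class 3 median was -0.78 and its sum 58.7%, and the class 4 minus class 3 level was -0.010 (log2 per kb), while it was 0.60 with the gene body alone and 0.57 for an overall mean of at least 4. Without Pou3f2 the median was -0.32 over all and 0.037 at class 3, with a class 3 sum of 115%. Without Pou4f2 the medians were -0.097 over all and -0.085 at class 4, with a class 4 sum of 91.2%. Without Pou4f3 they were -0.62 and -0.57. Class 4 sums stayed below the control under each alternative, from 74.6 to 91.2%.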

Other observations

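The surroundings of the genes held further peaks within 50 kb of the gene body. There were 4 outside the 5 kb window at Pou4f1, 4 at Pou4f2, 7 at Pou4f3, 7 at Pou3f1, 1 at Pou3f2 and 1 at Pou3f3. Over the wider region the summed knockdown reads were 74.6% of the control at Pou4f2, 86.8% at Pou4f1, 112% at Pou4f3, 108% at Pou3f1 and 73.4% at Pou3f2. At Pou3f3 they were 21.2%, from 1 peak. At Pou4f2, 4 of the 12 peaks within 50 kb were lower and 0 were higher by 2-fold. At Pou4f1 3 of 14 were lower and 3 higher, and at Pou4f3 1 of 14 was lower and 3 higher. At Pou3f1 0 of 10 were lower and 1 higher, at Pou3f2 0 of 3 passed the limit, and at Pou3f3 the 1 peak was lower. Among all listed peaks 20.6% were lower and 20.4% higher. The single peak near Pou3f3 (chr1:42684760-42684979), 220 bp wide, lay inside the noncoding gene Pantr1. It had means of 3.25 in the control and 1.01 in the knockdown. Pou6f1, a class 6 gene with 0 peaks in its window, had a 2109 bp peak 35.2 kb from its start, at 6.16 and 5.67.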
